A study of Mus musculus with 4 samples.

Results

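Forkhead transcription factors were examined in the epidermis of newborn mice without the catalytic activity of PRC1, a Polycomb complex whose Ring1 subunits attach ubiquitin to histone H2A. They were taken as every gene row whose symbol is Fox with a subclass letter from a to s and a number, leaving out Foxm1, Foxk1, Foxk2 and opposite-strand transcripts. This gave 41 genes of 24453 rows, in 17 subclasses on 16 chromosomes. The RNA came from back skin at postnatal day 0, from interfollicular cells that a sorter took for EpCAM, Sca1 and a high level of α6-integrin. The 2 control libraries are labelled only Control. The 2 mutant libraries carry the genotype Ring1a-/- Ring1b-/I53A: they have no Ring1a, and Ring1b (gene Rnf2) is null on one allele and carries the substitution I53A, which removes catalytic activity, on the other. How the alleles were restricted to a tissue, and how many animals gave each library, is not given in the sources used here. If the libraries do not come from separate animals, the p-values measure only technical spread.

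Forkhead proteins bind DNA through a shared winged-helix domain, and the letter in the name marks a subclass defined by that domain. Some are broadly expressed, such as the FoxO factors, which insulin and growth factor signalling keeps out of the nucleus through Akt. Others direct single lineages: FoxA in endoderm, Foxd3 in neural crest, Foxf1 and Foxf2 in mesenchyme. In skin, Foxn1 (mutated in the nude mouse), Foxi3, Foxe1, Foxq1 and Foxc1 are known from the hair follicle and from keratinocyte differentiation. Many lineage-restricted forkhead genes are classical Polycomb targets.

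The libraries held 15505018 to 21543385 counts. The basal keratin gene Krt14 stood at 3222 and 3408 CPM (counts scaled to the TMM-adjusted library size) in controls and at 1944 and 2486 CPM in mutants, so the labelled tissue is present in all 4. Ring1, the targeted gene whose product is Ring1a, fell by 3.38 ± 0.31 (SE) on the log2 scale, with controls at 24.2 and 33.3 CPM and mutants at 2.55 and 2.91 CPM (edgeR quasi-likelihood test, adjusted p = 0.000172). Rnf2 had 58.5 and 45.8 CPM in controls and 58.9 and 59.1 CPM in mutants (adjusted p = 0.681). The substituted base of the Rnf2 allele is not read by a count per gene. Xist was at 11.0 CPM in mutant replicate 1 and at 5998 to 8390 CPM in the other libraries, so that mutant replicate 1 was the only male library.

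Forkhead genes in this epidermis ranged from genes such as Foxn3, with 3662 to 4582 reads per library, to genes with no read at all. Of the 41 members 17 had enough reads for a test, 16 had between 1 read and 46 reads in all libraries together, and 8 had no read in any library. No tested member passed the test in either direction, with 0 higher and 0 lower (edgeR, with p-values adjusted by Benjamini-Hochberg over all tested genes and a limit of 0.05). In all tested genes 6.71% were called, 5.68% higher and 1.04% lower. At an unadjusted p under 0.05 there were 4 members (Foxo3, Foxc1, Foxo1 and Foxp2), all with the higher mean in mutants. They are 23.5% of the 17, and 18.7% of all tested genes passed the same limit. Foxp2 reached the minimum count in the mutants alone, and without it 3 of 16 members, or 18.8%, passed that limit. DESeq2 called 2 members higher, Foxc1 and Foxo3, and limma-voom called 0. The members nearest the threshold were Foxo3 and Foxc1 (adjusted p = 0.0514 and 0.0547).

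The median log2 fold change was 0.19 over the tested members and -0.01 over all tested genes. When offsets that take out a trend with GC content and length of each gene were put in the fit, the 2 medians were -0.12 and -0.14. The log2 fold change was above 0 for 10 members and below 0 for 7. With the offsets 5 of the 10 (Foxi3, Foxn1, Foxp1, Foxp3 and Foxp4) were below 0. Mutant libraries lay above control libraries without overlap for 5 members (Foxc1, Foxo1, Foxo3, Foxp2 and Foxp4), where 24.5% of all tested genes did so. Only Foxj3 among the tested members had both controls above both mutants, as had 23.5% of all tested genes. These shares are read as a description, since the filter lets a member in through either group.

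**Figure D1:**
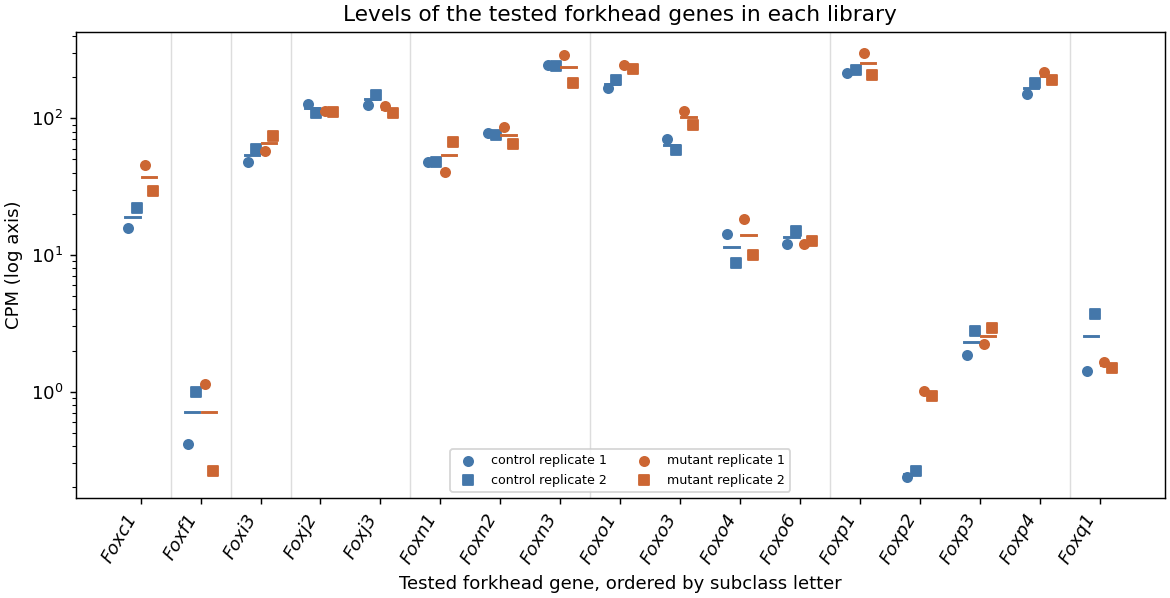
Level of each of the 17 tested forkhead genes in each library, in CPM on a log axis, ordered by subclass letter; points are libraries and short lines are group means. Levels run from 0.238 CPM for Foxp2 in control replicate 1 to 298 CPM for Foxp1 in mutant replicate 1.

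**Figure D2:**
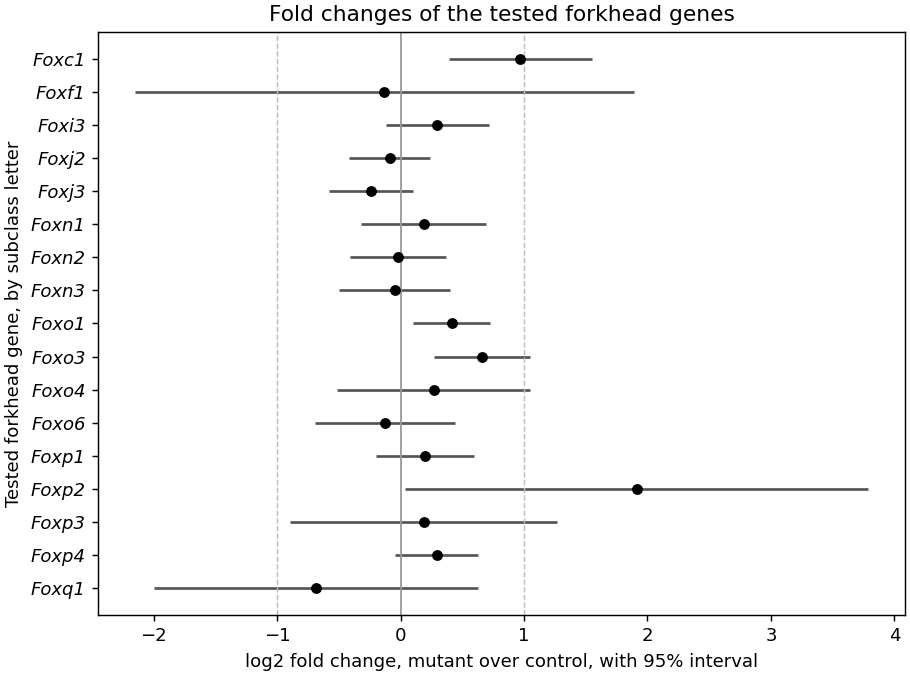
Log2 fold change of mutant over control for the 17 tested forkhead genes, with its 95% interval from the edgeR fit; dashed lines mark -1 and 1. The intervals of 10 genes stay between the dashed lines, and those of Foxc1, Foxo1, Foxo3 and Foxp2 lie above 0.

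The precision differed with depth. For 10 members the 95% interval of the log2 fold change in the main fit stayed between -1 and 1. Under that setting this range leaves out changes of 2-fold or more. The 10 were Foxi3, Foxj2, Foxj3, Foxn1, Foxn2, Foxn3, Foxo1, Foxo6, Foxp1 and Foxp4. The intervals of the other 7 reached past a 2-fold change. They include Foxf1 and Foxq1, where a change of that size was not detectable at this depth.

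The promoters of Foxo3 and Foxc1, the members of smallest p, are shown with those of 2 genes that had no read in any library. The latter are Foxl2, which has the most CG dinucleotides among such members, and Foxi2, which shares the fewest with Foxr2. Polycomb complexes in mammals are known to occupy CG-rich promoters. Each run is the 250 bases before the most upstream start listed by RefSeq (GRCm38.p6), 5′ to 3′ on the strand of the gene, with CG dinucleotides in capitals. RefSeq and GENCODE M21, which gives the gene coordinates in the text, place these starts differently: the run of Foxl2 lies wholly inside its GENCODE gene, and 60 bases of that of Foxo3, 59 of that of Foxi2 and 13 of that of Foxc1 do.
Foxo3 (chr10:42276696-42276945, minus strand): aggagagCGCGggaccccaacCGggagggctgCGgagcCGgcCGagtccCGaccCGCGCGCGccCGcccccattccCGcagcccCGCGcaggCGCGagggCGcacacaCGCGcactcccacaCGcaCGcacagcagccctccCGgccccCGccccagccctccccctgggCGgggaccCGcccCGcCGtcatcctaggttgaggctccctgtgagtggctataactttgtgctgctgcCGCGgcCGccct
Foxc1 (chr13:31806396-31806645, plus strand): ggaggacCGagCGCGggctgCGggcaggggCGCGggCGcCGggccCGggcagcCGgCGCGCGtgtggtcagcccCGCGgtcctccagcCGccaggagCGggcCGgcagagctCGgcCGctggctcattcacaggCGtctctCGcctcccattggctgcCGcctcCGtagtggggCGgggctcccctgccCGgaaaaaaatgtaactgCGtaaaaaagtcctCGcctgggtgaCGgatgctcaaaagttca
Foxl2 (chr9:98955357-98955606, plus strand): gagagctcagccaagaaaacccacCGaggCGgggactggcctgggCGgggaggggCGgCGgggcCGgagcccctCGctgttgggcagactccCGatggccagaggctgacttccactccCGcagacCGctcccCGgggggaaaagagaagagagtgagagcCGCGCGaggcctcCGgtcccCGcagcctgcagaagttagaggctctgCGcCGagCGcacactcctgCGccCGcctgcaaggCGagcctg
Foxi2 (chr7:135410117-135410366, plus strand): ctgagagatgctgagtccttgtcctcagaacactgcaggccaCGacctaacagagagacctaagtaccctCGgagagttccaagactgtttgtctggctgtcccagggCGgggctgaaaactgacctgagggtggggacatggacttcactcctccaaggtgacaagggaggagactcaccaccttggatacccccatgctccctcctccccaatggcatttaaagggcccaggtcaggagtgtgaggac

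Foxo3 had 31 CG dinucleotides and Foxc1 had 29, against 22 in Foxl2 and 3 in Foxi2. RefSeq promoters were matched by symbol for 27 of the 41 members. The median was 24 in the 11 tested members with a promoter (range 5 to 36) and 13.5 in the 16 untested ones (range 3 to 22). Over all 27025 genes with a promoter the median was 6. Over all tested genes the median was 15 and over all untested rows it was 3. Both groups of forkhead promoters had the higher median of each pair. The 6 members with a promoter and no read in any library had a median of 9 (range 3 to 22). Foxl2 and Foxn4 (17 CG dinucleotides), the highest among these, lay within the range of tested members. The forkhead binding motif GTAAACA (either strand, reverse TGTTTAC) was found in 1 of the 27 promoters, or 3.70%, and in 3.06% of all promoters of this length.

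**Figure D3:**
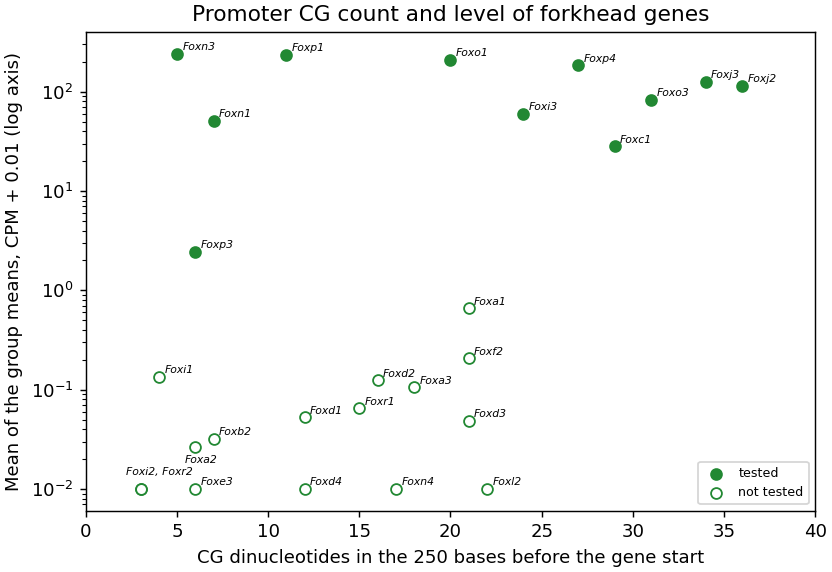
CG dinucleotides in the 250 bases before the RefSeq gene start against the mean of the control and mutant levels (CPM + 0.01, log axis) for the 27 forkhead genes with a RefSeq promoter; filled points were tested and open points were not. Tested genes spread from 5 to 36 CG dinucleotides and untested genes from 3 to 22.

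FoxO factors are the effectors of insulin and growth factor signalling in metabolism, stress resistance and cell cycle exit. All 4 were tested. Foxo1, on chromosome 3 from 52268336 to 52353221, stood at 167 and 192 CPM in the controls and at 247 and 230 CPM in the mutants. Both mutants lay above both controls. The log2 fold change was 0.41 ± 0.14 (SE), with group means of 179 ± 17.4 and 239 ± 12.1 CPM (SD, n = 2 each), and it did not pass the test (edgeR, adjusted p = 0.128). Without mutant replicate 2 the adjusted p was 0.0489, and with the offsets the log2 fold change was 0.20.

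Foxo3, which restrains proliferation and guards quiescent stem cells, lies on chromosome 10 from 42181841 to 42276755. Its levels were 70.2 and 58.3 CPM in the controls and 114 and 89.9 CPM in the mutants, again without overlap. The means were 64.2 ± 8.44 and 102 ± 17.0 CPM (SD, n = 2 each), and the log2 fold change was 0.66 ± 0.17 (SE, edgeR, 95% interval 0.27 to 1.05, adjusted p = 0.0514). The adjusted p passed 0.05 under 7 of 14 other settings. With the GC content and length offsets the log2 fold change was 0.25 (adjusted p = 0.417), the smallest value but one under any setting run. Leaving out single libraries gave 0.49 to 0.82.

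Foxo4 and Foxo6 were lower in level. Foxo4, on the X chromosome, had 14.2 and 8.68 CPM in controls and 18.2 and 10.0 CPM in mutants. Its groups overlapped, and the male library held the highest value. Foxo6, known mainly from brain and liver, had 12.0 and 14.9 CPM in controls and 12.0 and 12.6 CPM in mutants. The adjusted p was 0.772 for Foxo4 and 0.869 for Foxo6 (edgeR). Summed over the subclass, FoxO levels were 263 and 273 CPM in controls and 391 and 343 CPM in mutants.

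Of 23 tested genes that act upstream of FoxO, 22 did not pass the test, with a median log2 fold change of -0.02. Ywhaz, a 14-3-3 protein that holds FoxO in the cytoplasm and the most abundant gene of the list, had a log2 fold change of 0.16 (adjusted p = 0.711). Of 21 tested FoxO target genes 1 rose and 20 did not pass, with a median of 0.07. Among all tested genes 5.68% rose and 1.04% fell. At an unadjusted p under 0.05 (edgeR, either direction) there were 6 of the 21 targets, where 18.7% of all tested genes passed. Trp53inp1, a stress-induced regulator of autophagy, rose by 1.08 ± 0.28 (SE) on the log2 scale, with controls at 46.2 and 31.8 CPM and mutants at 107 and 58.6 CPM (edgeR, adjusted p = 0.0472). Its adjusted p was 0.0795 with limma-voom, 0.0537 with the earlier quasi-likelihood fit, and 0.0883 to 0.402 without control replicate 1, control replicate 2 or mutant replicate 1. Txnip, the most abundant target that did not pass, had 249 and 344 CPM as means of controls and mutants (adjusted p = 0.168).

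Foxc1, a regulator of mesenchyme and eye and of quiescence in hair follicle stem cells, lies on chromosome 13 from 31806633 to 31812476. It had 266 and 333 reads in the controls and 711 and 667 reads in the mutants. The levels of 15.8 and 22.1 CPM in controls lay below those of 45.2 and 29.4 CPM in mutants. The log2 fold change was 0.97 ± 0.26 (SE, edgeR, 95% interval 0.39 to 1.55, adjusted p = 0.0547), from means of 19.0 ± 4.41 and 37.3 ± 11.2 CPM (SD, n = 2 each). The adjusted p passed 0.05 under 6 of 14 other settings, and with the offsets the log2 fold change was 0.68 (adjusted p = 0.140). The log2 fold change was 0.75 and 1.23 without control replicates 1 and 2, and 0.65 and 1.26 without mutant replicates 1 and 2.

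Foxc1 is also expressed by dermal and perivascular cells, which the sort for EpCAM, Sca1 and α6-integrin is meant to leave out and whose markers were read in the same libraries. Of 15 fibroblast markers 4 rose and none fell, where 5.68% of all tested genes rose and 1.04% fell, with summed levels of 3867 and 4180 CPM in controls and 4884 and 4705 CPM in mutants. Of 8 tested pericyte and smooth muscle markers 1 rose, and the sums were 184 and 220 CPM in controls and 337 and 314 CPM in mutants. Most of these sums came from 2 genes. Cspg4, the marker that rose, had 68.8 and 68.8 CPM in controls and 192 and 138 CPM in mutants. Notch3, which was not called, had 96.1 and 133 CPM in controls and 119 and 147 CPM in mutants. Endothelial markers summed to 17.0 and 43.1 CPM in controls and 32.8 and 39.1 CPM in mutants, with none called of 8 tested. No marker of these 3 lists was at 0 in every library. Their part in the Foxc1 level was not tested, and more cells of a type and more RNA per cell cannot be told apart in bulk samples. Foxc2, the closest relative of Foxc1, had 0 and 4 counts in controls and 3 and 9 in mutants.

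**Figure D4:**
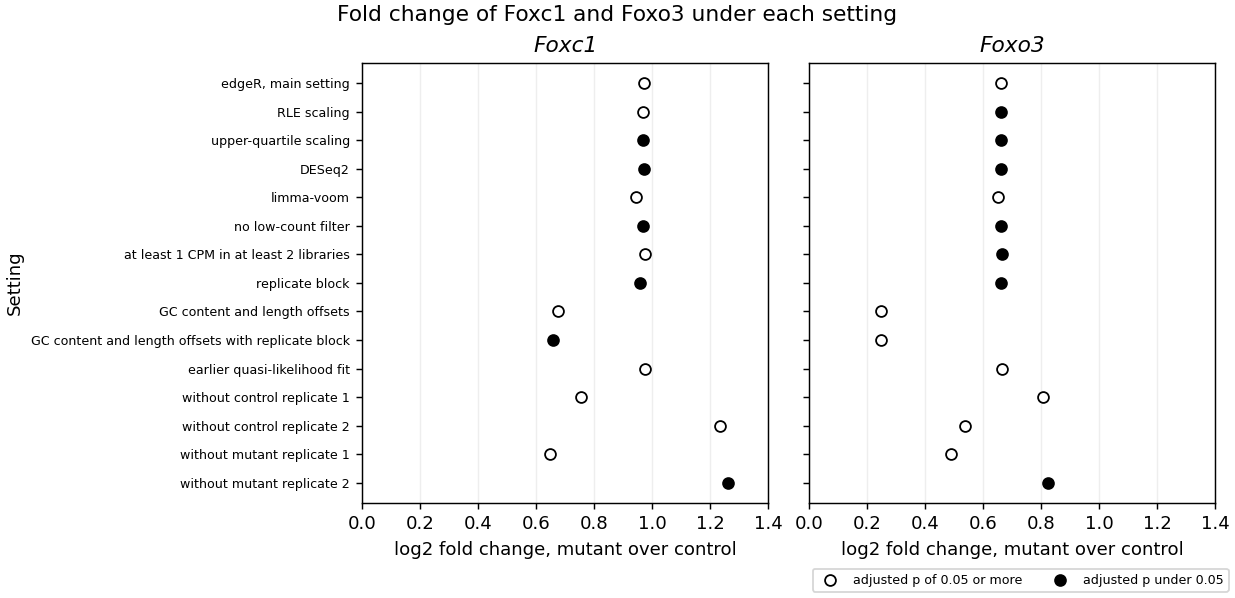
Log2 fold change of Foxc1 and Foxo3 under the main edgeR setting and 14 others; filled points have an adjusted p under 0.05. Values run from 0.65 to 1.26 for Foxc1 and from 0.25 to 0.82 for Foxo3, above 0 in every setting.

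Foxc1 stands 175 kb from Foxf2 and 246 kb from Foxq1. Foxf2, a mesenchymal factor, had 2 and 1 counts in controls and 6 and 5 in mutants, a ratio of pooled counts of 3.04 (95% interval 0.804 to 17.0, counting error only). Foxq1, known from the hair medulla, had 24 and 56 counts in controls and 26 and 34 in mutants (log2 fold change -0.69 ± 0.59 SE, adjusted p = 0.628, edgeR). Of its exon bases 3200 lie opposite an annotated gene, and the strand setting of the counting is not given in the sources used here. In another group of neighbours, on chromosome 8, Foxf1 had 0.417 and 0.994 CPM in controls and 1.15 and 0.264 CPM in mutants, and the values of controls and mutants overlapped. Foxl1, in the same group, had 1 read in all. Of the 6 tested genes beside these 2 groups, of which Exoc2, an exocyst subunit, was the most abundant, none was called (edgeR, and none at an unadjusted p under 0.05). Foxd2 and Foxe3 are a further pair of neighbours, 16.3 kb apart on chromosome 4.

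FoxP factors are repressors that dimerize through a leucine zipper. Foxp1, which keeps hair follicle stem cells quiescent, had 213 and 226 CPM in controls and 298 and 206 CPM in mutants, with overlap and an adjusted p of 0.645 (edgeR). Foxp4, broadly expressed in epithelia, had 151 and 180 CPM in controls and 218 and 189 CPM in mutants, without overlap (log2 fold change 0.30 ± 0.15 SE, adjusted p = 0.346, edgeR). With the offsets for GC content and length the log2 fold changes of Foxp1 and Foxp4 were -0.14 and -0.24, the opposite sign. The median of all tested genes was -0.14 with these offsets.

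Summed over the subclass, FoxP levels were 366 and 410 CPM in controls and 519 and 399 CPM in mutants, with overlap.

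Foxp2, best known from neural circuits of vocal learning, had 4 and 4 counts in controls and 16 and 21 in mutants. It reached the minimum count of 10 only in the mutants, so that it entered the test through the group where it is high, and its fold change and interval are given as a description. The levels were 0.238 and 0.265 CPM in controls and 1.02 and 0.926 CPM in mutants. The log2 fold change was 1.91 ± 0.85 (SE, 95% interval 0.04 to 3.79), and it did not pass the test (adjusted p = 0.257, edgeR). Across the other settings that kept Foxp2 it stayed between 1.69 and 1.99. The filter of 1 CPM in 2 libraries removed Foxp2.

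Foxp3, the factor of regulatory T cells, had 31 and 42 counts in controls and 35 and 66 in mutants (log2 fold change 0.19 ± 0.49 SE, adjusted p = 0.901, edgeR). The groups overlapped. Of 10 T cell markers Cd3d and Cd3g had no read in any library, and Cd3e had 6 and 11 counts in controls and 0 and 1 in mutants. Cd4 had 27 and 8 counts in controls and 50 and 48 in mutants. Ctla4, a checkpoint receptor abundant on regulatory T cells, had 6 and 5 counts in controls and 34 and 45 in mutants, with a log2 fold change of 2.55 (edgeR, adjusted p = 0.0623). Like Foxp2, Ctla4 reached the minimum count of 10 only in the mutants, the group where it is high, so its fold change is a description. Il2ra had 13 and 1 counts in controls and 1 and 21 in mutants (log2 fold change 0.37, adjusted p = 0.919, edgeR). Icos had 23 and 24 counts in controls and 35 and 29 in mutants (log2 fold change 0.19, adjusted p = 0.752, edgeR). None of the 5 tested markers was called. The markers summed to 15.4 and 14.8 CPM in controls and 24.5 and 33.9 CPM in mutants, mostly from the pan-leukocyte gene Ptprc. Foxp3 shares 590 exon bases with Ccdc22 and 266 with Ppp1r3f on the opposite strand, so its reads cannot be told from theirs if strand was not used. It also shares 853 exon bases with Flicr on its own strand, where strand does not separate them.

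Forkhead genes known from keratinocytes and hair were read in both genotypes, and none was called. Foxn1, which drives keratinocyte differentiation and hair shaft formation, stood at 48.0 and 47.7 CPM in controls and at 40.7 and 67.6 CPM in mutants. The mutants spanned the controls (log2 fold change 0.19 ± 0.23 SE, 95% interval -0.32 to 0.69, adjusted p = 0.751, edgeR). Foxi3, needed for hair placode and tooth development, had 47.9 and 60.1 CPM in controls and 58.0 and 74.3 CPM in mutants. Its log2 fold change was 0.30 ± 0.19 (95% interval -0.12 to 0.71, adjusted p = 0.463, edgeR) and -0.01 with the offsets. Foxe1, which acts in hair follicle orientation and thyroid, had 0 and 2 counts in controls and 1 and 3 in mutants.

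Among other hair follicle genes listed as partners of these factors, which hold regulators, markers and structural proteins, 20 were tested. Of these 5 rose, 1 fell and 14 missed the threshold, with a median log2 fold change of 0.20. Over all tested genes 5.68% were called higher and 1.04% lower, and the difference between this list and the forkhead genes was not tested. The list was chosen with earlier results of these data known, so its counts are a description only. Lhx2, a stem cell regulator, rose by 1.83 ± 0.18 (SE) on the log2 scale (edgeR, adjusted p = 0.000298). Nfatc1, a quiescence factor that Foxc1 is known to act with, rose by 1.15 ± 0.16 on the log2 scale, with controls at 66.4 and 56.5 CPM and mutants at 143 and 129 CPM (edgeR, adjusted p = 0.00157, or 0.0593 without control replicate 2). Tchh encodes a structural protein of the hair's inner root sheath and fell by 1.87 on the log2 scale (edgeR, adjusted p = 0.000278). Hoxc13, Cux1 and Tcf7l1 were the other 3 that rose. Without control replicate 1 or 2 the adjusted p was 0.0912 or 0.0802 for Hoxc13, 0.442 or 0.147 for Cux1 and 0.349 or 0.359 for Tcf7l1. With the offsets Cux1 and Tcf7l1 were not called either (0.492 and 0.319). Ptch1, the most abundant of those that did not pass, had a log2 fold change of -0.11 (adjusted p = 0.805). Of 10 hair follicle markers 1 rose (Lhx2) and 2 fell, Tchh and Krt71, a keratin of the inner root sheath with 4.58 and 12.7 CPM in controls and 2.29 and 0.617 CPM in mutants (edgeR, adjusted p = 0.0369). The markers summed to 534 and 530 CPM in controls and 750 and 795 CPM in mutants, mostly from Krt17 and Sox9, which did not pass the test. Their part in these values was not tested. The lists of partners and of hair follicle markers share 7 genes, among them Lhx2 and Tchh.

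Foxj2, Foxj3, Foxn2 and Foxn3 are broadly expressed, and none of them was called. Foxj2 had 128 and 109 CPM in controls and 112 and 111 CPM in mutants (log2 fold change -0.09 ± 0.15 SE, 95% interval -0.41 to 0.24, adjusted p = 0.830, edgeR). Foxj3 had 125 and 149 CPM in controls and 123 and 109 CPM in mutants, with the controls above the mutants (log2 fold change -0.24 ± 0.15, 95% interval -0.58 to 0.10, adjusted p = 0.471). They differ from Foxj1, the master factor of motile cilia, which had 0 reads in controls and 1 read in each mutant. Foxn2, a little studied member, had a log2 fold change of -0.02 (95% interval -0.41 to 0.37). Foxn3, a checkpoint repressor, had 245 and 243 CPM in controls and 292 and 181 CPM in mutants (log2 fold change -0.05, 95% interval -0.50 to 0.40). The SD of Foxn3 was 1.49 CPM in controls and 78.2 CPM in mutants (n = 2 each). Summed levels were 371 and 365 CPM in controls and 419 and 313 CPM in mutants for subclass n, with overlap. For subclass j they were 253 and 259 CPM in controls and 236 and 221 CPM in mutants, with both controls higher. The 3 forkhead genes outside the rule, Foxm1, Foxk1 and Foxk2, had log2 fold changes of -0.10, 0.24 and -0.11, and none was called (edgeR, none at an unadjusted p under 0.05).

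Levels between genes can be set side by side only per length. Per kilobase of annotated exon, the control means were 33.7 CPM for Foxp4, 22.2 for Foxj2, 21.2 for Foxn3, 20.7 for Foxo1 and 16.0 for Foxp1. Foxn1 stood at 14.9, Foxj3 at 12.5, Foxn2 at 10.4 and Foxo3 at 8.48 CPM per kilobase. With the spread between the 2 controls, Foxj2 (20.5 to 24.0), Foxn3 (21.1 to 21.3) and Foxo1 (19.3 to 22.1) cannot be ordered. Foxo6, Foxo4 and Foxc1 followed at 5.15, 3.28 and 3.24 CPM per kilobase. Foxi3 came to 42.2 CPM per kilobase on an exon model of only 1281 bases, whose length is a multiple of 3 and may hold no untranslated part, so its place in the order is uncertain.

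**Figure D5:**
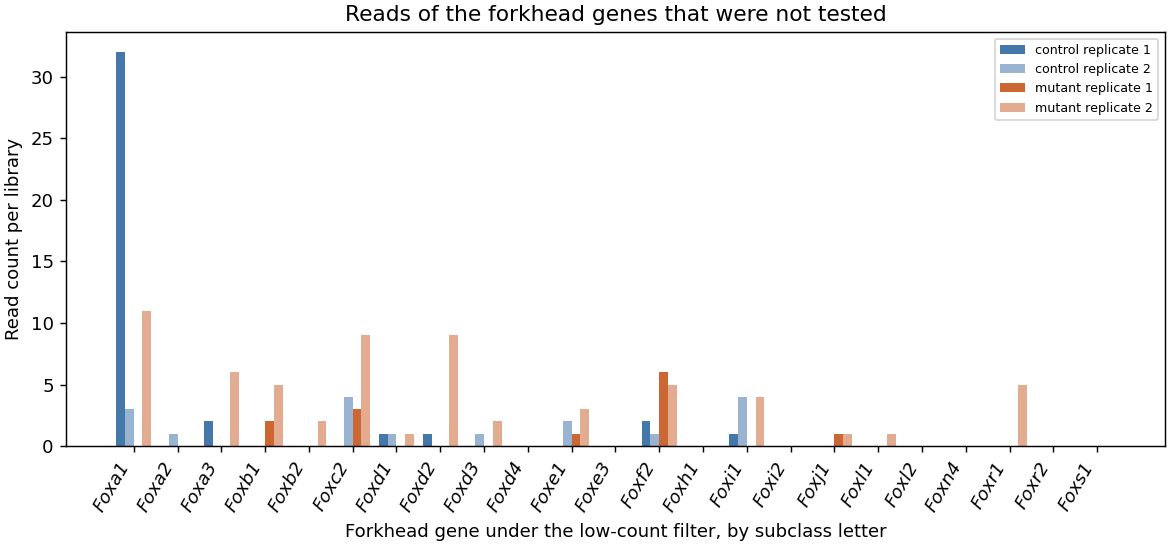
Read count per library of 23 of the 24 forkhead genes under the low-count filter, ordered by subclass letter. The highest bar is Foxa1 in control replicate 1 with 32 reads, and 8 genes have no bar.

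The 24 untested members cover all of subclasses a, b, d, e, h, l, r and s. Together they held 39 and 17 reads in control replicates 1 and 2 and 19 and 64 reads in mutant replicates 1 and 2. At least 1 read was seen for 6 and 8 of them in the controls and for 6 and 14 in the mutants, with the largest number in the most deeply sequenced library. The floor of 3 counts per library corresponds to 0.132 to 0.199 CPM. No read in any library was seen for Foxd4, Foxe3, Foxh1, Foxi2, Foxl2, Foxn4, Foxr2 and Foxs1. Among all 24453 rows 19.5% had no read. These genes include regulators of ovary (Foxl2), lens (Foxe3), early mesendoderm (Foxh1) and retina (Foxn4).

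For 6 more members both groups were at or under the floor of 3 counts over the group, and no fold was computed. They are Foxa2, Foxb2, Foxd1, Foxd3, Foxj1 and Foxl1. Foxb1, of the hypothalamus, had no read in controls and 2 and 5 in mutants. Scaled to library size, this is 1.94 times a floor of 3 counts over the control group. Foxr1, known from germ cells, had 5 reads, all in mutant replicate 2 (1.38 times that floor). Both ratios leave out the counting error of the mutant reads, so they are not lower bounds of a change. The value of Foxr1 rests on 1 library. Foxb1 also shares 418 exon bases with an antisense transcript.

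The other 7 untested members had reads in both groups. Foxa1, a pioneer factor of endoderm and hormone-responsive epithelia, was the most abundant, with 32 and 3 reads in controls and 0 and 11 in mutants. Its ratio of pooled counts was 0.261 (95% interval 0.120 to 0.526), but 1 control library holds most of its reads and the groups overlap. Foxd2 had 1 and 0 reads in controls and 0 and 9 in mutants, a ratio of 7.47 (95% interval 1.03 to 328), with all mutant reads in replicate 2. The intervals of the other 5 ratios, of Foxa3, Foxc2, Foxe1, Foxf2 and Foxi1, included 1. These intervals cover counting error only, not the spread between animals.

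Of the members with a control mean under 0.5 CPM, 0 of 24 reached a mean of 1 CPM in the mutants, a limit chosen after the values were seen. Foxp2 came closest at 0.972 ± 0.0654 CPM (SD, n = 2). Over all 10071 rows with a control mean under 0.5 CPM, 3.25% reached 1 CPM in the mutants. The count of 0 of 24 is near that background and says nothing particular of the forkhead genes.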

How the data were processed

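RNA-seq libraries of sorted newborn epidermis were compared, 2 control against 2 mutant, with groups and replicate numbers from the sample labels. What the authors deposited is a table of whole-number counts for each gene and library, without scaling. Tools named in the submitters' processing notes, without role or order, are DESeq2 1.6.3, HTSeq 0.6.1, Cufflinks 2.2.1 and TopHat2 2.0.13, with the build mm10. No source used here gives the annotation or the strand setting. Total RNA (10 ng) was amplified with a kit for low input, per the labels' protocols, which name no molecular identifiers.

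All rows were fitted together. filterByExpr (minimum count 10, minimum total 15) left 14550 genes. These were scaled by TMM and tested with the edgeR 4.0.16 quasi-likelihood test in R 4.3.3, two-sided, without a block, with Benjamini-Hochberg adjustment over all tested genes. Log2 fold changes are mutant over control. Their SE is the absolute log2 fold change divided by the square root of the F statistic of the test. Their 95% intervals use this SE and a t quantile, so an interval that excludes 0 restates an unadjusted p under 0.05. Replicates differed by more than sampling noise (chi-square per degree of freedom 13.1 in controls and 41.8 in mutants). The fit was tested on simulated data. Alternatives were DESeq2 1.42.0, limma-voom 3.58.1, upper-quartile scaling, RLE scaling, a fit without the filter, a filter of 1 CPM in at least 2 libraries, a replicate block, loess offsets (span 0.5) for GC content and length with and without the block, and leaving out each library. The earlier quasi-likelihood fit was added after seeing the data.

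Coordinates, exon length and GC content came from GENCODE M21 on GRCm38 (mm10), matched by symbol for all 41 members. Promoters came from RefSeq. Members and gene lists were chosen with earlier results of these data known. By the rule for named genes, members past the threshold and those of highest mean CPM, up to 20 in all, have full values, and from each list up to 2 called genes each way of smallest p and 1 other of highest mean CPM are named. Hoxc13, Cux1 and Tcf7l1, which the rule leaves out, were named after their values were seen. So were the markers Krt14, Krt17, Krt71, Sox9, Cd3e, Cd4, Ctla4, Ptprc, Il2ra, Icos, Cspg4, Notch3, Erbb3, Cdh1 and Tppp3. Promoters were to be shown for called members only. As none was called, the 4 shown were chosen after values were seen. Other cell type lists gave no member result. Melanocyte and Schwann markers summed to 92.6 to 114 CPM over the 4 libraries, and Langerhans markers to 309 to 591 CPM. Merkel markers summed to 1242 to 1651 CPM and ciliated markers to 67.0 to 91.8 CPM. The Merkel sum was nearly all Cdh1 (1232 to 1624 CPM) and the ciliated sum nearly all Tppp3 (64.8 to 88.2 CPM). Erbb3 (62.1 to 90.7 CPM) held most of the melanocyte and Schwann sum. These 3 sums therefore rest largely on 1 gene each and do not measure the amount of a cell type. Basal epidermis markers summed to 35850 and 38270 CPM in controls and to 30700 and 26550 CPM in mutants. Of 10 basal markers 1 was called lower and none higher. Of 5 tested Merkel markers 1 was called higher and none lower. Among all tested genes 5.68% were higher and 1.04% lower. The part of these markers in the forkhead levels was not tested. Results of 2 genes are not reported here.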

Additional observations from a re-analysis of the deposited data

How the results depend on the processing

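The count of forkhead genes called higher, 0 under the main setting, was 1 with RLE scaling, with the filter of 1 CPM in at least 2 libraries and with offsets and block together, and 2 with upper-quartile scaling, DESeq2 or no low-count filter. Leaving out 1 library gave 0 to 4, with 4 (Foxc1, Foxo1, Foxo3 and Foxp1) without mutant replicate 2. The count called lower stayed 0 to 0 when 1 library was left out and was 1 (Foxo6, log2 fold change -0.84) with offsets and block together. Over all tested genes, 826 were higher and 151 lower, 702 higher and 634 lower with the offsets, and 1034 higher and 1182 lower with offsets and block. The offsets moved the median of all tested genes by -0.13. Leaving out 1 library gave 258 to 1131 higher and 34 to 389 lower genes, fewest higher without control replicate 1. The median of the tested forkhead genes was -0.12 with offsets, -0.13 with offsets and block, and -0.083 to 0.26 without 1 library, lowest without mutant replicate 1, the male library.

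Of 236 values of single forkhead genes under other settings, 196 kept direction and call, 16 passed the threshold and 24 changed sign. With the offsets, alone and with the block, the log2 fold change turned to -0.24 and -0.24 for Foxp4, -0.012 and -0.011 for Foxi3, -0.14 and -0.16 for Foxp1, -0.061 and -0.098 for Foxn1, and -0.095 and -0.13 for Foxp3. Leaving out 1 library gave -1.24 to 0.13 for Foxq1, -0.083 to 0.44 for Foxp1, -0.23 to 0.50 for Foxn1, -0.19 to 0.69 for Foxo4, -0.20 to 0.031 for Foxj2, -0.27 to 0.036 for Foxo6, -0.10 to 0.49 for Foxp3, -0.42 to 0.26 for Foxn3, -1.36 to 0.72 for Foxf1 and -0.24 to 0.18 for Foxn2. The cause was not tested.

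With the replicate number as a block, 2 forkhead genes were called higher (Foxc1, adjusted p = 0.0273, and Foxo3, 0.0138), and 1042 genes were higher and 232 lower in all. Same-numbered libraries did not deviate together (correlation 0.041 across genes), and the labels do not say that a number pairs animals. With 2 libraries a group, members of few reads have wide intervals, and the untested members cannot be judged beyond the floor of 3 counts.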
